A study of Homo sapiens with 4 samples.

Results

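FSCN1 immunoprecipitates of A549 cells held 14 RNA peaks in 5 genes of metabolism and protein turnover, SLC7A5, PKM, PDXK, UCHL1 and P4HB. Peaks in at least 1 of the 2 immunoprecipitates (IP) were assigned to 121 genes, and these were 5 of them. They were chosen by their peaks in these same lists, so the presence of a peak in each of them is a description and was not tested. SLC7A5 had 6 peaks, PDXK 4, UCHL1 2, PKM 1 and P4HB 1. The 14 peaks lay at 8 positions, and 10 of them were pairs over the same bin on both strands. Of the 14, 7 lay opposite to the gene, among them the P4HB peak. None of the 14 peaks had more tags than the median peak of its list, and both UCHL1 peaks equalled it. In other protein-coding genes with a peak, 34 of 180 peaks had more tags than that median (18.9%).

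A549 cells are a long-established line from a human lung adenocarcinoma. For iRIP-seq, RNA was fixed to proteins with ultraviolet light (400 mJ/cm2), digested, recovered with FSCN1 and sequenced, and 2 input samples were made from RNA that was not precipitated. No treatment or genotype separated the IP replicates. The labels name an antibody against the Flag tag and mark input replicate 2 as an input plasmid, and the study's legend for the precipitation blot also names a Flag antibody, whereas its methods name an antibody against FSCN1. No label describes a tagged form of FSCN1. The peak lists of the 2 IP replicates were used here, and the input samples were not analysed here, so no value below is an enrichment over input. The study describes peak calling with input as background and a screen of peaks by their abundance over input, and the lists themselves have no column for input. The study describes the replicates as biological, and the labels do not say whether they came from separate cultures.

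FSCN1 encodes fascin, which bundles actin filaments, and the experiment asked which RNAs it binds. The 5 genes serve amino acid transport, glycolysis, vitamin B6 metabolism, ubiquitin handling and protein folding. SLC7A5, also called LAT1, forms a heterodimer with SLC3A2 and imports large neutral amino acids such as leucine. PKM encodes pyruvate kinase, the enzyme of the last step of glycolysis, and is spliced into PKM1 or PKM2 by a choice between mutually exclusive exons. PDXK phosphorylates vitamin B6 and thereby makes the cofactor pyridoxal phosphate. UCHL1 is a ubiquitin hydrolase that is abundant in neurons and is also made by lung tumours. P4HB is protein disulfide isomerase, which forms disulfide bonds in the endoplasmic reticulum and is also the beta subunit of collagen prolyl hydroxylase.

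Each peak was 1 bin of 50 bp on 1 strand, and the 14 peaks lay at 8 positions. Coordinates are on GRCh38 with starts counted from 1, and exons are those of the MANE Select transcript of each gene in GENCODE 44. The sequences of the bins that lay in coding exons, at the short exon of UCHL1 and in the intron of SLC7A5 are shown, since these are all the positions outside a 3'UTR. They are written 5′ to 3′ on the strand of the gene, and capitals mark CpG dinucleotides, except in UCHL1, where capitals mark the bases of exon 2.
SLC7A5, exon 1, chr16:87869301-87869350, gene on the minus strand, peaks on both strands in IP replicate 2: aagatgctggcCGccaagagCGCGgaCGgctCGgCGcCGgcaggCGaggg
SLC7A5, exon 1, chr16:87869251-87869300, gene on the minus strand, peaks on both strands in IP replicate 1: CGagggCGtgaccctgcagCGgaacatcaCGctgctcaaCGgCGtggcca
SLC7A5, intron 2, chr16:87847951-87848000, gene on the minus strand, peaks on both strands in IP replicate 2: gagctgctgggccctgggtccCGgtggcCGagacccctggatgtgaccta
PKM, exon 7, chr15:72207201-72207250, gene on the minus strand, peak on its strand in IP replicate 2: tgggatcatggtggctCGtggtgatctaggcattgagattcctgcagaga
PDXK, exon 11, chr21:43755951-43756000, gene on the plus strand, peaks on both strands in IP replicate 2: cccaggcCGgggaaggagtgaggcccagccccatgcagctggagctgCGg
UCHL1, exon 2, chr4:41257101-41257150, gene on the plus strand, peak opposite to the gene in IP replicate 1 and on its strand in IP replicate 2: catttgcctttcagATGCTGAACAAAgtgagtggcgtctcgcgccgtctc
P4HB, exon 7, chr17:81846501-81846550, gene on the minus strand, peak opposite to the gene in IP replicate 2: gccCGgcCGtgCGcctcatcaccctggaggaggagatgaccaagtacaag

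**Figure D1:**
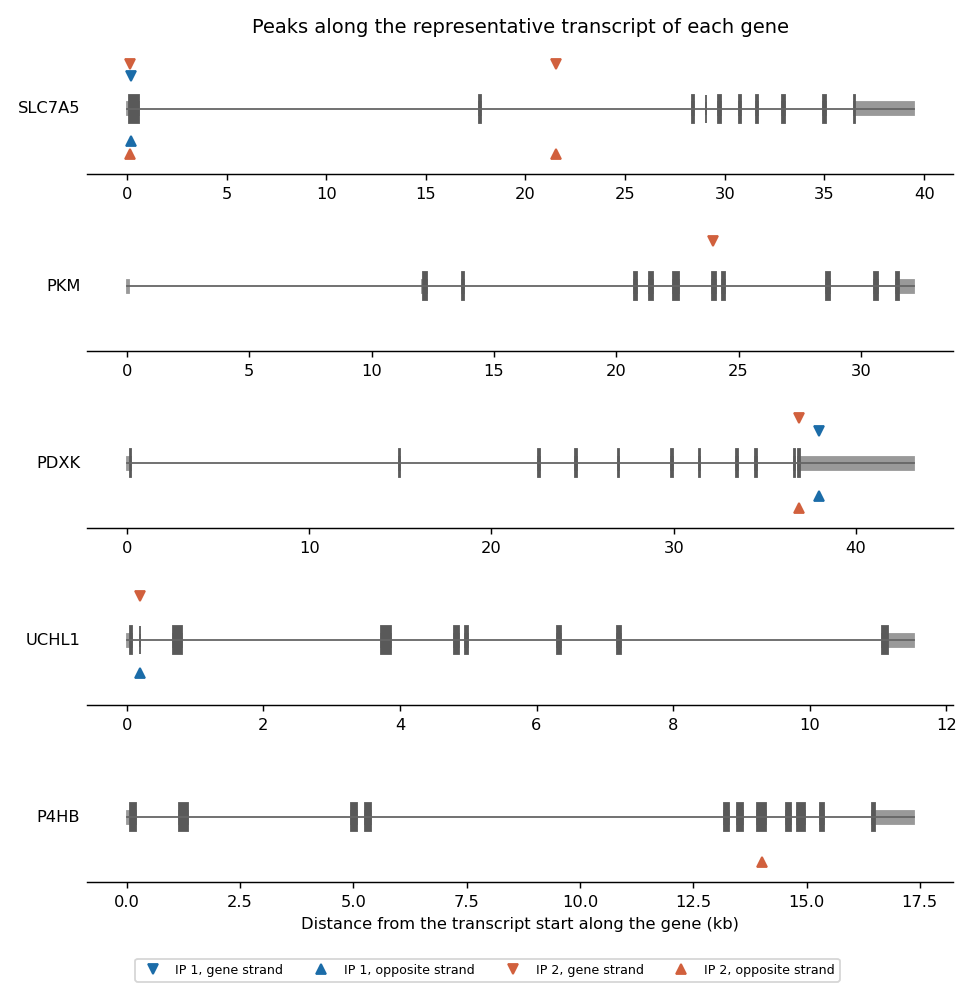
Peaks along the MANE Select transcript of each gene, as distance from the transcript start in kb, with coding exons as tall boxes and UTRs as low boxes. Triangles above the line are peaks on the strand of the gene and those below are on the opposite strand (blue, IP replicate 1; orange, IP replicate 2); SLC7A5 and UCHL1 have peaks in both replicates close to the start, PDXK in its last exon.

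Tags are the mean number of reads per bin as the authors listed them, not scaled to library size, and intervals are exact Poisson 95% intervals. They cover counting error only, and whether the tags of the 2 strands of a position are independent cannot be told from the lists. The lists do not give the depth of the libraries. IP replicate 1 held 181 peaks with 7 to 151 tags (median 9), and IP replicate 2 held 238 peaks with 6 to 170 tags (median 8). The p-values are those of the authors. Among peaks of 1 bin, each combination of tags and strand had the same p-value throughout a list, so a p-value adds no information to the tags and the strand. Peaks with equal tags on different strands have different p-values.

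SLC7A5 (ENSG00000103257.9), the amino acid transporter gene, spans 87830023 to 87869507 of chromosome 16 on the minus strand. It had the most peaks of the 5 genes, with 2 in the list of IP replicate 1 and 4 in that of IP replicate 2. In replicate 1, the bin at 87869251 to 87869300 had 7 tags on the strand of the gene (interval 2.81 to 14.4, p-value 2.65e-06) and 8 tags on the opposite strand (interval 3.45 to 15.8). In replicate 2, the bin next to it, at 87869301 to 87869350, had 6 tags on each strand (interval 2.20 to 13.1). The replicates thus marked directly adjoining bins of exon 1, with 0 bp between them and no shared base. Together the bins covered nucleotides 158 to 257 of the spliced transcript, which encode residues 25 to 58 of 507. They began 157 nt downstream of the transcript start and ended 366 nt before the end of the exon, which is 623 nt long. Of 2 annotated coding transcripts, 1 has these bins in an exon.

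The remaining SLC7A5 position was found in replicate 2 alone. It lay in intron 2 at 87847951 to 87848000, 3723 bp from the 5′ end of the intron and 6795 bp from its 3′ end. There, 6 tags fell on the strand of the gene and 7 on the opposite strand. No annotated gene other than SLC7A5 covered any of the 3 positions.

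Sequences similar to exon 1 of SLC7A5 exist on the same chromosome. With 50 bp on either side, the exon 1 bins resembled the pseudogene SLC7A5P1 over 150 bp at 95.3% identity, and SLC7A5P2 at 91.3% and 94.6%. The 50 bp of the bin of replicate 1 differed from SLC7A5P1 by 1 base and from SLC7A5P2 by 4. The bin of replicate 2 differed from each by 3 bases. Neither pseudogene had a peak in either list, and each bin occurred exactly 1 time in the genome. The authors kept reads with a unique alignment, and the part of reads from the pseudogenes in these tags was not tested. Without the exon 1 bins, SLC7A5 had peaks in replicate 2 alone. The intron 2 position had no similar sequence elsewhere (at least 40 bp at 85% identity).

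PKM, the pyruvate kinase gene (ENSG00000067225.19 in the lists), spans 72199029 to 72231819 of chromosome 15 on the minus strand. IP replicate 1 had 0 peaks there, and IP replicate 2 had 1. This peak, at 72207201 to 72207250, had 6 tags on the strand of the gene (interval 2.20 to 13.1, p-value 6.29e-06), the lowest number in the list. The opposite strand had no peak. The bin lay within exon 7 of 11, 27 nt from its 5′ end and 74 nt from its 3′ end, and encodes residues 288 to 305 of 531. Exon 7 comes before the mutually exclusive exons and is shared by PKM1 and PKM2: the exon of 167 nt that differs between the transcripts lay 4012 bp or 4580 bp further along. Of 13 annotated coding transcripts, 8 span the bin and all 8 have it in an exon. Similar sequence was found in the pseudogenes PKMP1 (129 bp at 93.8% identity) and PKMP2 (129 bp at 90.7%) and in the liver and red cell isozyme gene PKLR (122 bp at 86.9%). The bin differed from these by 2, 6 and 9 bases, and none of them had a peak.

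PDXK (ENSG00000160209.19), the pyridoxal kinase gene, spans 43719094 to 43762307 of chromosome 21 on the plus strand. It had 2 peaks in each replicate, all in its last exon, and the positions of the replicates did not overlap. In replicate 1, the 3'UTR at 43757051 to 43757100 had 8 tags on each strand (interval 3.45 to 15.8). The p-values were 6.67e-07 for the sense peak and 3.17e-07 for its partner. In replicate 2, 7 tags fell on the gene strand of a coding bin at 43755951 to 43756000 (interval 2.81 to 14.4, p-value 1.29e-06), and 6 on the opposite strand. The positions were 1050 bp apart. The coding bin began at the first base of exon 11, right after the splice site, and encodes residues 276 to 292 of 312. Exon 11 is 6349 nt long, and the bin of replicate 1 began 1100 nt into it. Of 6 annotated coding transcripts, 3 have the bin of replicate 1 in an exon and 3 that of replicate 2. Neither position had a similar sequence elsewhere in the genome.

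UCHL1 (ENSG00000154277.13), the ubiquitin hydrolase gene, spans 41256413 to 41268455 of chromosome 4 on the plus strand. It was the only 1 of the 5 genes with the same bin in both replicates, and the strands differed. At 41257101 to 41257150, replicate 1 had 9 tags on the strand opposite to the gene (interval 4.12 to 17.1, p-value 3.62e-08). Replicate 2 had 8 tags on the strand of the gene (interval 3.45 to 15.8, p-value 1.36e-07). Neither list held a partner on the other strand, where a signal below 7 tags in replicate 1 or 6 in replicate 2 would not be listed. The bin contains the whole of exon 2, which is 12 nt long and encodes residues 12 to 15 of 223, with 38 bases of the introns around it. It therefore holds both splice sites of the exon, the end of intron 1 before the capitals and the start of intron 2 after them in the sequence printed above. The authors' list gives the peak of replicate 2 as 0.24 coding sequence, 0.48 noncoding exon and 0.28 intron. The divergent lncRNA UCHL1-DT lies on the minus strand and overlaps the start of the gene, but begins at 41256727, outside the bin, and runs away from it. The position had no similar sequence elsewhere.

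P4HB (ENSG00000185624.16), the protein disulfide isomerase gene, spans 81843159 to 81860856 of chromosome 17 on the minus strand. IP replicate 1 had 0 peaks there, and IP replicate 2 had 1, on the strand opposite to the gene. The peak, at 81846501 to 81846550, had 6 tags (interval 2.20 to 13.1) and a p-value of 0.00846, the largest in the list and the same as for the 6 tags opposite to SLC7A5 exon 1. It lay opposite to exon 7 of 11, 79 nt from its 5′ end and 72 nt from its 3′ end, where the mRNA encodes residues 312 to 328 of 508. Of 17 coding transcripts, all 17 have these bases in an exon. No annotated gene lies on the plus strand there: the lncRNA that overlaps P4HB on that strand ends at 81843958. No similar sequence was found elsewhere.

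**Figure D2:**
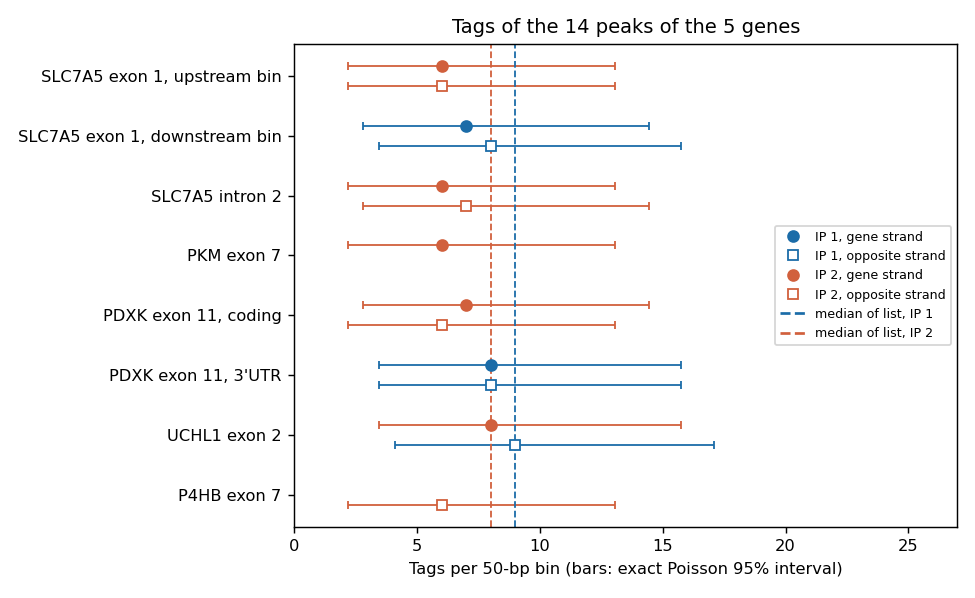
Tags per 50-bp bin of each of the 14 peaks, with exact Poisson 95% intervals (filled circles, strand of the gene; open squares, opposite strand; blue, IP replicate 1; orange, IP replicate 2) and the median of each list as a dashed line. The values lie between 6 and 9 with intervals that overlap throughout, and none lies above the median of its list.

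Across the 5 genes, the peaks of replicate 1 had 7 to 9 tags (median 8) and those of replicate 2 had 6 to 8 (median 6). The lowest number of tags in the list was reached by 1 of the 5 peaks of replicate 1 and by 6 of the 9 peaks of replicate 2. Over the whole lists, 32.6% and 32.8% of peaks had the lowest number. The 14 intervals overlapped, so the peaks could not be ranked by strength. None of the 14 peaks had more tags than the median of its list (Wilson 95% interval of the share, 0 to 21.5%). Of all listed peaks, 84 of 181 in replicate 1 and 93 of 238 in replicate 2 had more tags than the median. In 80 other protein-coding genes with an assigned peak, 34 of 180 peaks did (18.9%, interval 13.8 to 25.2), so the intervals of the shares overlap. These intervals take each peak as independent and are too narrow where peaks are pairs over 1 bin.

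**Figure D3:**
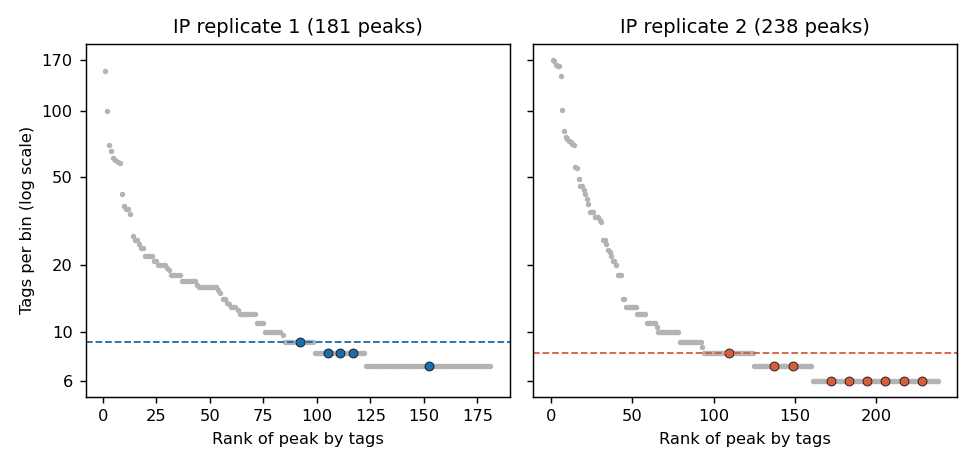
All peaks of each list ranked by tags on a log scale (grey), with the peaks of the 5 genes in colour and the median of the list as a dashed line. The 5 peaks of IP replicate 1 lie between 7 and 9 tags and the 9 peaks of IP replicate 2 between 6 and 8, at or below the median; places among tied peaks are arbitrary.

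A peak on either strand was found in 47 of 20046 annotated protein-coding genes in replicate 1 (0.234%) and in 61 in replicate 2 (0.304%), in 92 in either replicate (0.459%) and in 16 in both (0.0798%). SLC7A5, PDXK and UCHL1 had peaks in both replicates, and PKM and P4HB in replicate 2. Since the genes were chosen for their peaks, nothing was read from these counts against the background. No peak of replicate 1 in the 5 genes overlapped a peak of replicate 2 on the same strand. Without regard to strand, 1 position was shared, that of UCHL1. Starts were counted from 0 in the lists, as the grid of 50-bp bins shows, but the length column gives 51 bp for each bin. If the listed regions are read as closed intervals of that length, the adjoining exon 1 bins of SLC7A5 share 1 base and also count as 1 shared position.

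Of the 14 peaks, 7 lay on the strand of the gene and 7 on the opposite strand. Since 10 of them were pairs over identical bins, which divide equally by construction, only the other 4 peaks could differ in strand: 2 lay on the strand of the gene (PKM and UCHL1 in replicate 2) and 2 on the opposite strand (UCHL1 in replicate 1 and P4HB). In other protein-coding genes, 97 of 180 peaks lay on the strand of the gene (53.9%), pairs included. In SLC7A5 and PDXK, every peak had a partner over the identical bin on the other strand, and in each of these 5 pairs the strands differed by at most 1 tag. PKM, UCHL1 and P4HB had no such partner. In other protein-coding genes, 51 of 74 peaks of replicate 1 (68.9%) and 68 of 106 peaks of replicate 2 (64.2%) had a partner, and 23 of 25 and 29 of 34 pairs differed by at most 1 tag. Whether a peak opposite to a gene came from antisense RNA or from RNA of the gene cannot be told apart in these lists.

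By the authors' features, 6 of the 8 positions lay in annotated exons (75.0%, Wilson 95% interval 40.9 to 92.9). They were the SLC7A5 exon 1 bins, PKM, both PDXK positions and UCHL1. By the MANE Select transcripts it was also 6 of 8, but with P4HB, whose only peak the list calls antisense, in place of UCHL1, where 12 of 50 bases are exonic. Of 122 positions in other protein-coding genes, 70 lay in exons of the representative transcript (57.4%, interval 48.5 to 65.8). Within 1000 bp of the transcript start lay 3 of the 8 positions, those of SLC7A5 exon 1 and UCHL1 (37.5%, interval 13.7 to 69.4), and 32 of the 122 others (26.2%, interval 19.2 to 34.7). The intervals take positions as independent, although 2 of the 8 adjoin in 1 exon, and the shares are given as a description.

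GC content was higher in all 8 positions than in the gene around them. It ranged from 52.0% in PKM exon 7 and 54.0% in UCHL1 to 74.0% in the coding bin of PDXK and 76.0% in the upstream bin of SLC7A5 exon 1. The difference from the whole gene was 7.92 percentage points in replicate 1 and 11.2 in replicate 2 (9.56 ± 2.31, SD, n = 2), with UCHL1 counted in both. It was smallest in PKM, at 3.62 percentage points, and largest in the upstream SLC7A5 bin, at 17.6. Of the 789 bins of the SLC7A5 gene, 15 (1.90%) had a GC content at least as high as this bin, and of the 655 bins of PKM, 289 (44.1%) were at least as high as its bin. Exons are richer in GC than introns in 4 of the genes, and against the exons alone the PKM bin was lower by 4.62 percentage points while the other 7 positions stayed higher. In 122 positions of other protein-coding genes, the mean difference from the gene was 6.95 percentage points, and 87 were higher, so a higher GC content was common to peaks in genes at large.

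CpG dinucleotides were frequent at the positions near transcript starts. The upstream and downstream bins of SLC7A5 exon 1 held 8 and 6 CpG in 50 bp, and UCHL1 held 4. In windows of 250 bp around these bins, the ratio of observed to expected CpG was 1.13, 1.09 and 0.971, against 0.374 over the whole SLC7A5 gene and 0.398 over UCHL1. The remaining positions had ratios from 0.120 in the 3'UTR of PDXK to 0.670 in P4HB. No position resembled any of 5676 structural RNA sequences (at least 40 bp at 85% identity). Those from GENCODE were rRNA and its pseudogenes, snRNA, snoRNA, scaRNA, other small cytoplasmic and nuclear RNAs, and mitochondrial rRNA and tRNA. Units of the ribosomal RNA precursor were taken from RefSeq.

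**Figure D4:**
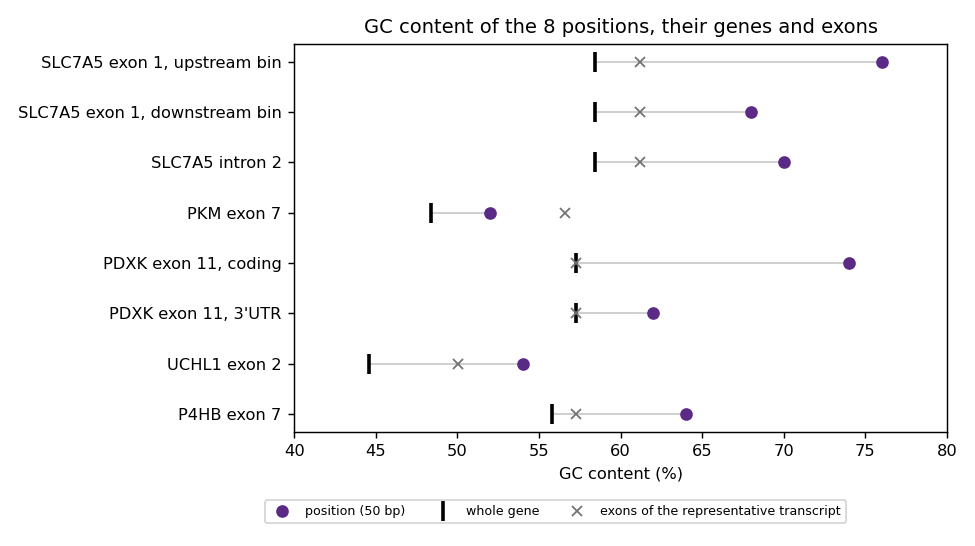
GC content in percent of the 8 positions (purple circles), of the whole gene (black bars) and of the exons of the MANE Select transcript (crosses). Every circle lies to the right of its bar, from 3.62 percentage points in PKM exon 7 to 17.6 in the upstream bin of SLC7A5 exon 1; PKM is the position that lies below the exons of its gene.

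Other genes of the same pathways were looked up in lists of 14 amino acid transport genes, 19 glycolysis genes, 18 genes of vitamin B6 metabolism and enzymes that use its cofactor, 18 genes of ubiquitin handling and 18 genes of protein folding in the endoplasmic reticulum. Apart from the 5 genes, 5 of 82 listed genes had a peak in replicate 1 and 0 in replicate 2, where 0.234% and 0.304% of all protein-coding genes had one. The lists were written with earlier results of these data known, and SQSTM1 and RBCK1 were then known to have peaks, so their count is not independent evidence. None of the other 13 amino acid transport genes had a peak, including SLC3A2, the heavy chain that pairs with SLC7A5. None of the other 17 folding genes had one either, including the hydroxylase partners P4HA1, P4HA2 and P4HA3 of P4HB and the chaperone HSPA5.

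In glycolysis, 1 of the other 18 genes had a peak. GAPDH, the enzyme that oxidises glyceraldehyde phosphate, had 7 tags (interval 2.81 to 14.4) in replicate 1 on the strand opposite to the gene, at 6537101 to 6537150 on chromosome 12. Among genes of vitamin B6 metabolism, 1 of the other 17 had a peak. ODC1, the pyridoxal phosphate enzyme that makes putrescine, had 10 tags on each strand (interval 4.80 to 18.4) of an intronic bin of replicate 1. The bin lay on chromosome 2, at 10446701 to 10446750. The list assigned the peak opposite to ODC1 to the small nucleolar RNA gene SNORA80B and labelled it antisense. Whether the tags on the strand of ODC1 came from ODC1 or from SNORA80B was not tested. In ubiquitin handling, 3 of the other 17 genes had a peak, all in replicate 1. SQSTM1 and RBCK1 among them were listed with their peaks known, so the lists were not ranked. SQSTM1, the autophagy receptor p62 that binds ubiquitin, had 3 peaks of 8 to 9 tags in replicate 1, at 179833151 to 179833200 on both strands and at 179833551 to 179833600 on chromosome 5. RBCK1, a subunit of the ligase for linear ubiquitin chains, had 8 tags on each strand in its 5'UTR on chromosome 20 at 408551 to 408600. RPS27A, which encodes ubiquitin fused to a ribosomal protein, had 7 tags on the opposite strand on chromosome 2 at 55234801 to 55234850. Of these genes, ODC1 alone had a peak above the median of its list.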

How the data were processed

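The iRIP-seq experiment covered 2 FSCN1 IP samples and 2 input samples of A549 cells, and the 2 IP peak lists were analysed. The methods name HISAT2 for alignment to GRCh38 and the use of ABLIRC as well as Piranha for peaks, and say that the authors used uniquely aligned reads free of PCR duplicates. Which caller made the lists is not given in the sources used here. The study counts more peak genes than the 2 lists hold, and its set was not compared with them here. The deposited signal is the number of read tags per 50-bp bin, averaged over bins and not scaled, beside a p-value that the authors computed and a region length.

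The members, pathway lists and alternatives were chosen with earlier results of these data known. A peak belonged to a gene if it overlapped the gene on either strand or was assigned to it, and 1 was added to listed starts. Positions were mapped to MANE Select transcripts of GENCODE 44. For bins that lay wholly in an exon, the mapped bases matched the transcript sequences. The named genes are the 5 members, pathway genes with a peak, and genes with the closest summed tags. Genes with similar sequence, SLC3A2, P4HA1, P4HA2, P4HA3, HSPA5, UCHL1-DT and SNORA80B are named as context. No test between groups was made, because there were 2 replicates of 1 condition. Similar sequence was searched with blastn 2.17.0 over each bin with 50 bp on either side (85% identity over 40 bp or more). Python 3.11.15, scipy 1.17.1, pysam 0.24.0 and matplotlib 3.10.9 served the other steps. Interval and mapping functions were tested on simulated data.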

Additional observations from a re-analysis of the deposited data

How the results depend on the processing

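When peaks at or below the median of their list were dropped, the 5 genes had 0 peaks in each replicate and 0 genes with peaks in both, and the pathway lists kept 0 genes apart from 1 (ODC1) in the list of vitamin B6 metabolism. Counted once per position, replicate 1 had 3 peaks. Sharing between replicates moved from 0 positions to 1 on either strand, and to 1 with closed intervals, an alternative chosen after seeing the data. Against exons, the GC difference was 7.25 percentage points in place of 10.2 over the 8 positions. With each replicate left out, genes with a peak ranged from 3 to 5, those in the lists of glycolysis from 1 to 1, vitamin B6 metabolism from 1 to 2, ubiquitin handling from 1 to 4 and protein folding from 0 to 1. PKM and P4HB were lost without replicate 2, and GAPDH, ODC1, SQSTM1, RBCK1 and RPS27A without replicate 1. The cause was not tested. Of 42 alternatives, the other 24 moved a count by at most 1.5 times or a value by less than its error. For the GC difference, that error is the SD of the 2 replicates, which are also the values with each replicate left out. Shares were judged by the wide intervals of 8 positions or 14 peaks. Little can therefore be read from these values staying within their error. Leaving out positions with similar sequence elsewhere, chosen after seeing the data, removed PKM and both exon 1 bins of SLC7A5, and left 4 genes with a peak, 2 of them (PDXK and UCHL1) in both replicates. No paired analysis was possible because no groups were tested and the input was not analysed here. The unknown depth, the lowest tags, 7 and 6, and any screen against input limit what a missing peak says.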

Other observations

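Summed over strands and positions, SLC7A5 had 15 tags in replicate 1 and 25 in replicate 2, PDXK 16 and 13, and UCHL1 9 and 8. Among the 13 other protein-coding genes with peaks in both replicates, the gene closest to SLC7A5 was RPLP0, a ribosomal stalk protein gene with 17 and 32 tags. PLEC, which encodes the cytolinker plectin, was closest to PDXK with 14 and 12 tags, and the ribosomal protein gene RPL3 was closest to UCHL1 with 7 and 12. PKM and P4HB each had 6 tags in replicate 2 alone, as did 8 of 43 other genes with peaks in that replicate alone. Likeness is the sum of the absolute differences in tags, over 2 samples.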
